A study of Mus musculus with 2 samples.

Results

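The forkhead (Fox), paired box (Pax), T-box (Tbx), LIM homeobox (Lhx), NK homeobox (Nkx), sine oculis homeobox, distal-less (Dlx) and Iroquois (Irx) genes encode transcription factors that assign cells of the embryo to tissues, and their signals were read in 2 Klf5-overexpressing clones of E14, a mouse embryonic stem (ES) cell line. The members were all genes whose symbol starts with the short form of 1 of these 8 families followed by a number (for Fox, by a letter from a to s and a number), except Foxd3, Foxa2 and Tbx3. They came to 99 genes with 183 probe sets, of 18193 genes on the array. The rule reads the start of the symbol, so it also took in 8 antisense or opposite strand transcripts and forkhead genes that most tissues use.

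Each family is defined by its DNA-binding domain. Forkhead factors bind through a winged helix, T-box and paired box factors through the domains that name them, and Lhx, Nkx, sine oculis, Dlx and Irx factors through a homeodomain, which several Pax factors also carry. Most members switch on in a restricted tissue or region after gastrulation, and in ES cells many promoters of this kind are known targets of Polycomb repression. Some forkhead genes, by contrast, act in dividing or metabolically active cells of most kinds.

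Total RNA of each clone was hybridised to 1 Affymetrix array, so there was 1 group with n = 2 and no control. Both clones overexpress Klf5, a zinc finger transcription factor of the pluripotency network, and were kept undifferentiated in medium with 15% fetal bovine serum and leukaemia inhibitory factor (LIF). The promoter that drives Klf5 and the way the clones were derived are not stated in the labels. The wild-type clones with which the study compares them were not analysed here, so no value below is an effect of Klf5.

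A gene was called expressed when its signal exceeded the background level of the array, set at the 95th percentile of the signals of 48 adult tissue genes (81 probe sets). The level was 6.61 in clone 1 and 6.31 in clone 2. A gene with several probe sets was read by its brightest, judged by the mean of both arrays. Read this way, 3 of the 48 background genes themselves passed in both clones, and 5 in at least 1. The level is a percentile of their own probe sets, so some pass by construction. The calls of single members carry that limit. Probe sets differ in affinity, so a signal was set against its own array's background and not against the signal of another gene. A gene that is not above background may still be transcribed at a low level. With 1 array per clone there is no p-value, and the precision is that of 2 arrays.

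Klf5 itself was 11.61 in clone 1 and 12.25 in clone 2 on the log2 scale of the deposited signals. The labelled cell type was checked on markers. All 7 ES cell markers passed the background level in both clones, including Pou5f1 (12.26 and 12.43) and Nanog (12.21 and 12.49). Of 7 neural markers 1 passed in both clones, of 5 mesoderm markers 0, of 5 definitive endoderm markers 0 and of 10 fibroblast feeder markers 2. In 1 clone alone passed the neural marker Tubb3 (6.35 and 6.79) and the endoderm marker Sox17 (6.31 and 6.81), both in clone 2, and the mesoderm marker Mesp1 (7.30 and 6.04) in clone 1. The feeder markers that passed in both clones were Thy1 (7.54 and 7.66) and Pdgfrb (7.33 and 7.16), while the collagens Col1a1 (4.68 and 4.09) and Col3a1 (4.31 and 3.61) were not above background. In bulk RNA, few cells with a high level and many cells with a low level cannot be told apart.

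Of the 99 members, 17 (17.2%) were above background in both clones, 1 in clone 2 alone and 81 in neither. Over all genes measured, 8843 of 18193 (48.6%) passed in both clones, 52.7% in at least 1 and 47.3% in neither. The 17 were 14 Fox genes, Nkx2-6, Nkx2-9 and Six4, and the gene in clone 2 alone was Six5. The count in both clones was 6 with the 99th percentile as background, all of them Fox genes, 10 when probe sets were averaged per gene, and 38 with a lower level taken from sensory receptor genes. Of 9 Pax, 11 Tbx, 9 Lhx, 10 Dlx and 6 Irx members, 0 passed in either clone. The members sort further by that lower level, the 95th percentile of 83 probe sets of odorant, vomeronasal and taste receptor genes (5.04 in clone 1 and 4.86 in clone 2). At or below it in both clones lay 52 members (52.5%), against 29.6% of all genes. The other 29 members not above background exceeded this lower level in at least 1 clone.

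**Figure D1:**
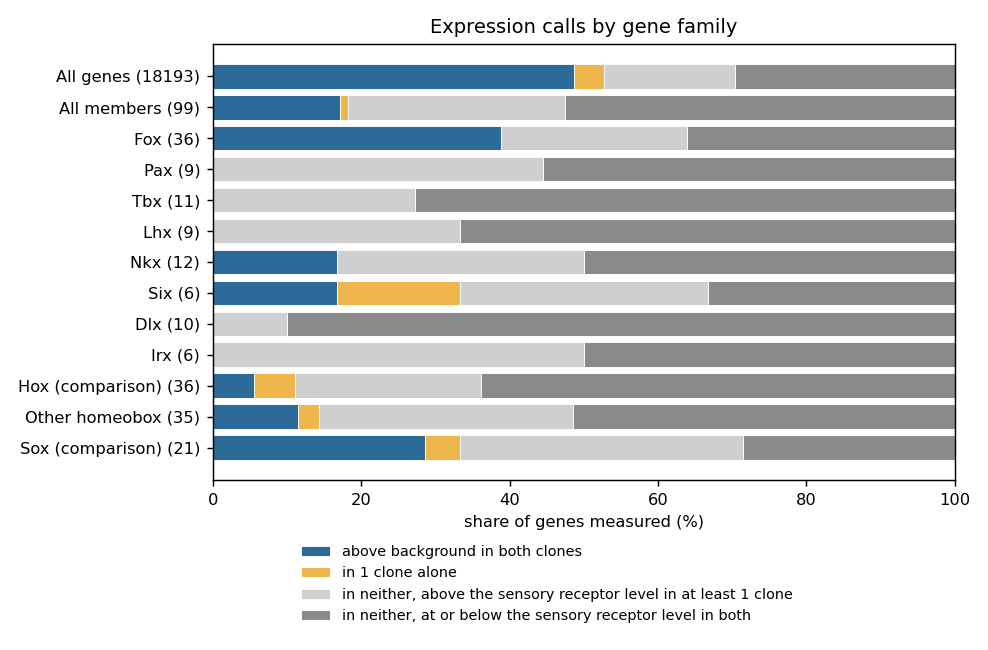
Share of genes (%, horizontal axis) by expression call, for all genes, all members, each family and 3 comparison sets, with the number of genes in parentheses. Bars hold the genes above background in both clones, in 1 clone alone, and in neither clone above or at the lower sensory receptor level; 38.9% of Fox members but 0 Pax, Tbx, Lhx, Dlx or Irx members passed in both clones.

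The Fox members above background in both clones were the 12 genes of a list of widely expressed forkhead genes, together with Foxh1 and Foxn4, which were 2 of the other 24 Fox members. That list was written with earlier results of these data known, so its count is a description and supports nothing. Outside that list, 5 of 87 members (5.75%) passed in both clones. Of the 48 background genes 3 passed, but the level was set on these same genes. Their count is therefore no independent rate to set the members against. Among genes of other families, 2 of 36 Hox genes (5.56%), 4 of 35 homeobox genes outside the rule (11.4%) and 6 of 21 Sox genes (28.6%) passed in both clones. Differences between these shares were not tested. The lists of partners, regulators and targets used below were also written with earlier results known. Their counts are descriptions too, and 48.6% of all genes passed in both clones.

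Foxo factors are held in the cytoplasm by AKT signalling and act in the nucleus when it is low. Foxo1 had signals of 8.86 in clone 1 and 9.30 in clone 2, with a mean of 9.08 ± 0.31 (SD, n = 2), and 3 of its 4 probe sets were above background in both clones. Foxo3 was 8.55 and 8.39, with 2 of 3 probe sets above background. Foxo4, on the X chromosome, was 8.46 and 8.35 by 1 of 2 probe sets. All 3 Foxo members thus lay at least 1.85 above the background level in both clones. Of the fixed list of Foxo regulators, all 10 that were measured passed in both clones, among them the kinases Akt1 (8.32 and 8.46) and Sgk1 (11.90 and 11.94), which phosphorylate Foxo, and the deubiquitinase Usp7 (11.28 and 11.26). Of 9 genes listed as Foxo targets 7 passed in both clones, including Sod2 (11.30 and 11.43), Ccng2 (9.15 and 9.13) and Sesn3 (7.46 and 7.10). Bcl6 passed in clone 2 alone (6.15 and 6.96), and Irs2 was not above background (6.13 and 5.43).

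Foxm1 drives genes of the G2 and M phases of the cell cycle. It was 7.25 in clone 1 and 7.83 in clone 2, and 2 further probe sets gave 7.21 and 7.24, and 7.14 and 7.14. All 3 exceeded the background in both clones and the remaining probe set, at 2.92 and 2.79, did not. All 9 measured genes of its target list passed in both clones, including Plk1 (10.99 and 10.99), Birc5 (11.29 and 11.23) and Aurkb (9.65 and 10.13). Among these 9 targets, 0 differed 2-fold between the clones.

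The Foxk, Foxj and Foxn genes of the widely expressed list are less tied to a tissue. Foxk1 and Foxk2, which regulate glycolysis and autophagy genes, were 6.73 and 7.01, and 7.76 and 8.53. Foxj2 was 7.78 and 8.06, and Foxj3 was 9.16 and 9.28. Foxn2 was 9.37 and 9.66, and Foxn3, a transcriptional repressor, 7.71 and 7.99. Each lay above background in both clones, Foxk1 by 0.12 in clone 1, the narrowest margin among the 17 members above background in both clones. Foxj2, Foxj3, Foxk1 and Foxn2 each rested on 1 probe set above background in both clones. A further probe set of each read 4.31 and 4.84 (Foxj2), 3.00 and 2.94 (Foxj3), 5.09 and 4.83 (Foxk1) and 4.06 and 4.27 (Foxn2). With probe sets averaged, Foxj2, Foxj3 and Foxk1 were not above background in both clones.

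Foxp factors pair with each other through a leucine zipper. Foxp1, which has a splice form linked to pluripotency, was 7.65 and 7.78, and 3 of its 8 probe sets were above background in both clones. Another 2 Foxp1 probe sets passed in clone 2 alone (5.77 and 6.70, and 6.22 and 6.84). Foxp4 was 6.85 and 7.09 by 1 of 3 probe sets. Their relatives were not above background: Foxp2, a factor of brain and lung, was 3.76 and 4.41, and Foxp3, which defines regulatory T cells, was 3.99 and 3.93. The files do not say which Foxp1 probe set reads which splice form.

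**Figure D2:**
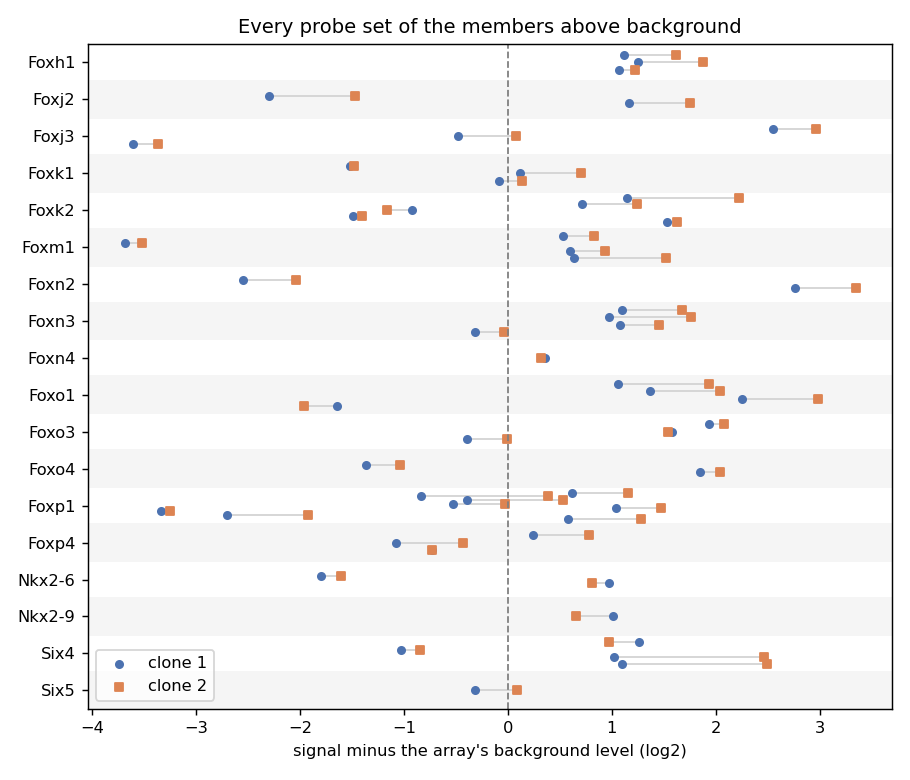
Signal minus the array's background level (log2, horizontal axis) for every probe set of the 18 members above background in at least 1 clone; circles are clone 1, squares are clone 2, a grey line joins the readings of 1 probe set, and the dashed line is the background level. Foxh1 has all 3 probe sets above the line, while Foxj2, Foxj3, Foxn2, Foxo4, Foxp4, Nkx2-6 and others rest on 1.

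Foxh1 is the forkhead partner through which Smad2 and Smad4 carry Nodal signals to their target genes, and it belongs to the early embryo. It was 7.86 in clone 1 and 8.19 in clone 2, and its other probe sets gave 7.73 and 7.93, and 7.68 and 7.53. It is the only expressed Fox member with several probe sets of which all were above background in both clones. The 6 partners and targets of Foxh1 that were measured also passed in both clones, namely Smad2 (8.71 and 8.66), Smad3 (7.53 and 7.53), Smad4 (10.70 and 11.17), Nodal (10.73 and 10.56), Lefty1 (7.97 and 7.95) and Lefty2 (7.51 and 7.89). Foxn4, a factor of retinal and spinal cord progenitors, was 6.97 and 6.63 by its single probe set, which is 0.36 and 0.32 above the background levels. The forkhead genes left out by the rule were Foxd3 (7.19 and 7.13), above background in both clones, and the endoderm factor Foxa2 (5.16 and 4.65), above it in neither.

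The remaining 22 Fox members were not above background, with signals from 3.25 to 6.15 in clone 1 and from 3.41 to 6.11 in clone 2. They include the endoderm factors Foxa1 (5.32 and 5.38) and Foxa3 (4.36 and 4.52), the mesenchyme factors Foxc1 (3.65 and 3.60), Foxc2 (3.89 and 3.98), Foxf1 (5.54 and 5.82) and Foxf2 (3.64 and 3.41), and the kidney stroma factor Foxd1 (3.25 and 3.51). Foxj1, the regulator of motile cilia, was 5.42 and 5.26, and Foxn1, which thymic epithelium needs, 4.27 and 4.6. Closest to the background level were the ovarian factor Foxl2 (6.10 and 6.11) and the lens factor Foxe3 (6.15 and 5.79). The others were Foxb1, Foxb2, Foxd2, Foxd4, Foxi1, Foxl1, Foxl2os, Foxp2, Foxp3, Foxq1 and Foxs1.

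All 9 Pax members were below background in both clones, from 3.44 to 5.75 in clone 1 and from 3.36 to 5.57 in clone 2. Pax6, the eye and forebrain factor, was 5.12 and 5.13, and its opposite strand transcript Pax6os1 3.44 and 3.36. The neural crest and muscle progenitor factors Pax3 (5.19 and 4.70) and Pax7 (4.18 and 3.36), the B cell factor Pax5 (4.79 and 4.53), the thyroid and kidney factor Pax8 (4.67 and 4.27) and the islet factor Pax4 (5.32 and 5.42) were also below it. Pax1 (4.91 and 4.64) and Pax9 (5.75 and 5.57), factors of the sclerotome and pharyngeal pouches, were the other members. Pax2 was not among the members, so nothing is said of it. Of 5 listed Pax partners 4 were above background in both clones, including Paxip1 (9.24 and 9.57), Paxbp1 (9.50 and 9.46) and the histone methyltransferase Kmt2d (7.68 and 7.94), which acts in a complex with Paxip1.

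All 11 Tbx members were below background, from 2.74 to 5.57 in clone 1 and from 2.71 to 5.52 in clone 2. Tbx5, of heart and forelimb, was 5.57 and 5.52, Tbx4, of the hindlimb, 3.90 and 4.14, Tbx20, of the heart, 4.85 and 4.57, and Tbx6, of presomitic mesoderm, 4.62 and 4.31. Tbx1 (4.45 and 5.26), Tbx2 (3.50 and 3.27), Tbx15 (4.63 and 4.38), Tbx18 (3.04 and 3.07), Tbx19 (5.22 and 5.06), Tbx21, the T helper cell factor (3.78 and 3.36), and Tbx22 (2.74 and 2.71) were the others. T-box genes outside the rule differed in their calls: Tbx3 (9.0 and 9.45), Eomes (8.24 and 8.60) and Mga (8.74 and 8.95), which combines a T-box with a Max-binding domain, were above background in both clones, and the cortical factor Tbr1 (3.13 and 2.99) in neither.

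The 9 Lhx members were below background, from 3.33 to 5.71 in clone 1 and from 3.09 to 5.92 in clone 2. Lhx1, of the head organiser and kidney, was 3.84 and 4.02. Lhx2, of forebrain and eye, was 4.46 and 4.35, the pituitary factors Lhx3 and Lhx4 were 5.01 and 5.24, and 4.27 and 4.26, and the interneuron factor Lhx6 was 5.71 and 5.92. Lhx8 was 3.33 and 3.12, Lhx9 5.17 and 4.39, and Lhx1os 3.55 and 3.12. Lhx5 was 4.19 and 3.09, the 1 member below background that differed by at least 1 on the log2 scale, and no fold is given because both signals are below background. LIM factors act through the adaptor Ldb1, which was above background in both clones (8.65 and 8.74), as were its stabilising partners Ssbp3 (7.96 and 8.34) and Ssbp4 (8.65 and 9.12) and the ubiquitin ligase Rlim (8.97 and 9.14). In all, 6 of 13 genes of this list passed in both clones. The LIM homeobox genes of other names, Isl1 (5.32 and 4.48), Isl2 (5.53 and 5.56) and Lmx1b (5.36 and 4.23), did not, and Lmx1a passed in clone 2 alone (6.59 and 6.42), where the level was lower.

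The 10 Dlx members, 4 of them antisense or opposite strand transcripts, were below background, and 9 of 10 lay at or below the sensory receptor level in both clones, the largest share of any family. The genes of forebrain interneurons and branchial arches read 3.37 and 3.42 (Dlx1), 4.07 and 3.47 (Dlx2), 3.99 and 3.14 (Dlx5) and 4.59 and 3.91 (Dlx6). Dlx3, of placenta, skin and hair, was 5.81 and 5.37, and Dlx4 was 4.85 and 4.39. The noncoding transcripts Dlx1as, Dlx4os, Dlx6os1 and Dlx6os2 were below background as well, Dlx6os1, also known as Evf2, at 3.23 and 2.73.

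The 6 Irx members were below background, from 3.58 to 6.24 in clone 1 and from 3.89 to 6.27 in clone 2. Irx2 came closest of all members not above background in either clone (6.24 and 6.27, which is 0.37 and 0.04 below the levels). Irx1 was 4.25 and 4.78, Irx3 5.20 and 5.52, Irx4, of the heart ventricle, 4.66 and 4.87, Irx5 3.58 and 4.01 and Irx6 4.04 and 3.89.

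**Figure D3:**
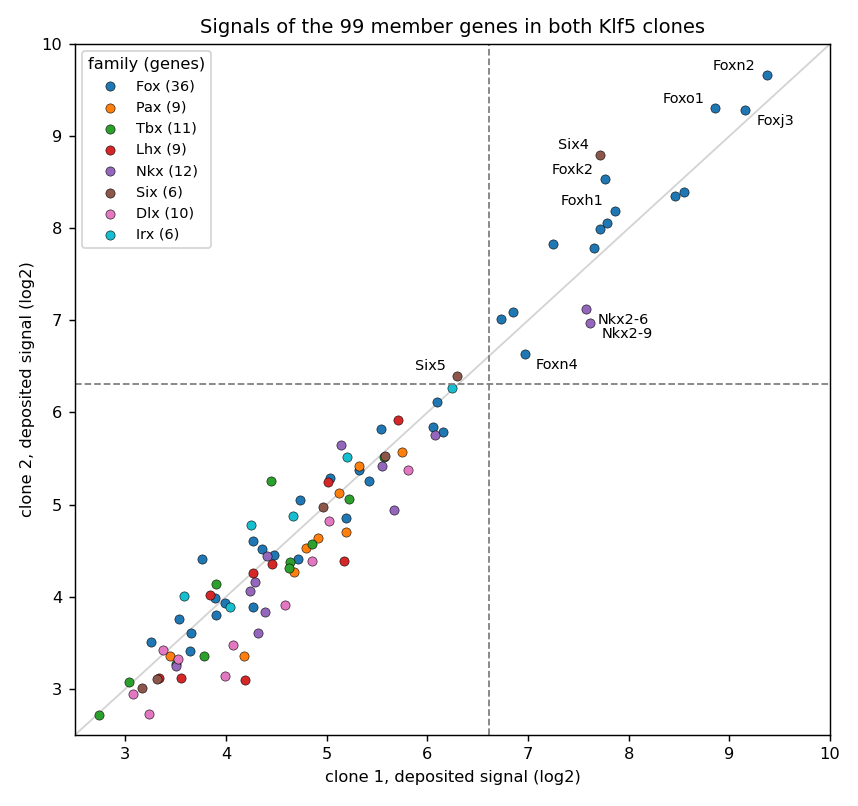
Deposited signal (log2) in clone 1 (horizontal axis) and clone 2 (vertical axis) of the 99 members, coloured by family; dashed lines are the background levels of 6.61 and 6.31 and the grey diagonal marks equal signals. Most members lie in the lower left, below both lines, and the points to the upper right are Fox genes, Six4, Nkx2-6 and Nkx2-9.

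Of 12 Nkx members 2 (16.7%) were above background in both clones, against 48.6% of all genes measured. Of the 48 background genes, on which the level itself was set, 3 also passed. Nkx2-6, a factor of pharyngeal endoderm and the caudal heart, was 7.58 in clone 1 and 7.12 in clone 2, while its other probe set read 4.81 and 4.70. Nkx2-9, of the ventral neural tube, was 7.62 and 6.97 by its single probe set. Both were lower in clone 2, by 0.46 and 0.65 on the log2 scale. With the 99th percentile as background neither was called, and Nkx2-6 was not called when its probe sets were averaged. The other 10 lay between 3.50 and 6.08 in clone 1 and between 3.25 and 5.76 in clone 2. They include the heart factor Nkx2-5 (6.08 and 5.76), the thyroid, lung and forebrain factor Nkx2-1 (4.41 and 4.44), the islet and ventral neural factors Nkx2-2 (3.50 and 3.25), Nkx6-1 (4.24 and 4.06) and Nkx6-2 (4.29 and 4.16), and the tail bud factor Nkx1-2 (4.39 and 3.83). Nkx2-3 was 5.67 and 4.94, Nkx2-4 5.55 and 5.42, Nkx3-2 4.32 and 3.61 and Nkx6-3 5.14 and 5.65. Of 4 listed partners of Nkx factors in the heart, Srf was above background in both clones (7.63 and 7.58). Gata4 (5.59 and 5.79), Gata6 (6.53 and 6.28) and Mef2c (4.74 and 4.31) were above it in neither. Gata6 lay just under the levels of 6.61 and 6.31, and above those of the 90th percentile (6.19 and 6.13).

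Among 6 sine oculis members, Six4 was above background in both clones and Six5 in clone 2 alone. Six4, a factor of muscle, kidney and ganglia, was 7.71 in clone 1 and 8.80 in clone 2. Six5, a neighbour of the myotonic dystrophy kinase gene, was 6.29 and 6.40, and its clone 2 signal is under the clone 1 level of 6.61. The eye and forebrain factors Six3 (4.96 and 4.97) and Six6 (3.31 and 3.11), the kidney progenitor factor Six2 (5.58 and 5.53) and Six3os1 (3.16 and 3.01) were not above background. Sine oculis factors recruit Eya co-activators, of which Eya3 was above background (8.48 and 8.43) and Eya1 (4.96 and 4.77), Eya2 (3.37 and 3.61) and Eya4 (3.84 and 3.19) were not. Dach1 (4.49 and 3.78) and Dach2 (4.03 and 4.20) were not either. Sine oculis, Nkx and Pax factors use co-repressors of the Groucho family, though not every family member acts as one. Of 6 measured genes of this family 5 passed in both clones, including Tle3 (9.72 and 10.01) and Tle4 (9.87 and 10.69). Tle2 (4.04 and 4.27) was the exception.

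Several members are neighbours in the genome. In 15 groups of members within 200 kb of each other, holding 39 members, 12 groups had 0 members above background in either clone and 3 held members with unlike calls. Nkx2-9 was above background in both clones between Nkx2-1 and Pax9 (5.75 and 5.57), which were not. Six4 was above background in both clones and the nearby Six6 in neither. Six5 passed in clone 2 alone next to Foxa3, which did not. The groups with 0 members above background were the Dlx1 and Dlx2, Dlx3 and Dlx4, and Dlx5 and Dlx6 pairs with their noncoding transcripts, Six2 with Six3 and Six3os1, Foxf1 with Foxc2 and Foxl1, Foxq1 with Foxf2 and Foxc1, Nkx2-4 with Nkx2-2 and Pax1, Tbx2 with Tbx4, Foxd2 with Foxe3, and Pax6, Lhx1 and Foxl2 with their opposite strand transcripts. 

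**Figure D4:**
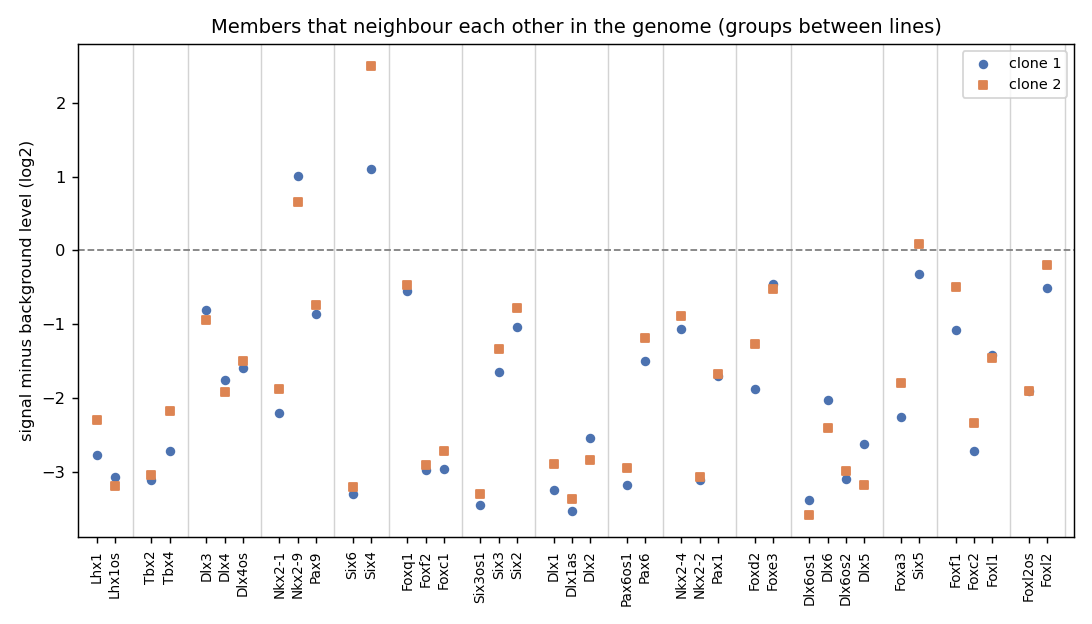
Signal minus the array's background level (log2, vertical axis) for the 39 members that lie within 200 kb of another member; vertical lines separate the 15 groups, circles are clone 1, squares are clone 2 and the dashed line is the background level. Nkx2-9, Six4 and, in clone 2, Six5 lie above the line next to members below it.

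The promoters of the neighbours with unlike calls are shown for a comparison of sequence between a gene above background and its neighbours below it on chromosome 12. Each run holds the 250 bases before the transcription start, from RefSeq on GRCm38.p6, 5′ to 3′ on the gene's strand, with CG dinucleotides in capitals. They are Six4 (chr12:73113426-73113675, minus strand), Six6 (chr12:72939632-72939881, plus strand), Nkx2-9 (chr12:56613285-56613534, minus strand), Nkx2-1 (chr12:56536909-56537158, minus strand) and Pax9 (chr12:56695221-56695470, plus strand).
Six4: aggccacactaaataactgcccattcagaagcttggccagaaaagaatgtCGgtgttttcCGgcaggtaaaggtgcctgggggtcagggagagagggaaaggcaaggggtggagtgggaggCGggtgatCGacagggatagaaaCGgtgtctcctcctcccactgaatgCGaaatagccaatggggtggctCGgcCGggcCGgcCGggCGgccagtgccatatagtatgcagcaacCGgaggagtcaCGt
Six6: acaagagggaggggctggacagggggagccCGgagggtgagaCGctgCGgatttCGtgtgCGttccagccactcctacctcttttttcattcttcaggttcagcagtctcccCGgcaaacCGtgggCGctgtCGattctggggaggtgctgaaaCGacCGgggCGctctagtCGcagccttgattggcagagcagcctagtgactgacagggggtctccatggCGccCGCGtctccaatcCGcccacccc
Nkx2-9: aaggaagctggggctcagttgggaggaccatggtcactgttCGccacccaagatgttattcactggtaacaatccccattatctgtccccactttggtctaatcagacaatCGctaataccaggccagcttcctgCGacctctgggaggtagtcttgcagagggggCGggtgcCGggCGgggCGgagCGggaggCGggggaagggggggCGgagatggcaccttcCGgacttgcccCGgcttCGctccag
Nkx2-1: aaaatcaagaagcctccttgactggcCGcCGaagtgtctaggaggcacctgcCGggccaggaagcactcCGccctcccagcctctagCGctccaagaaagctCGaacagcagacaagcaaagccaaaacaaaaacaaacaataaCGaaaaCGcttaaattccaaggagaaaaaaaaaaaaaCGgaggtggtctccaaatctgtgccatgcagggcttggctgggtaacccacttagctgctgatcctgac
Pax9: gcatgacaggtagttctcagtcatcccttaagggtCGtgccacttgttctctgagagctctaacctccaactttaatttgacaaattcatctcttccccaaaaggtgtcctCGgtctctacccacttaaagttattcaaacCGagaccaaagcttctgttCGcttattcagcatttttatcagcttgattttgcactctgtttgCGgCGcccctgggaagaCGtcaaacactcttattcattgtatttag
CG is its own reverse complement, so both strands hold it equally. The Six4 window held 13 CG dinucleotides and that of Six6, not above background, 17. Nkx2-9 had 13, against 9 for Nkx2-1 and 7 for Pax9. Of the 27018 genes with a promoter sequence, 91.7% had at least 1 CG in this window, with a median of 6, so each of the 5 windows held more than the median whatever its call. A comparison of CpG content over all members was void, since 70 of the 99 (70.7%) had a promoter in the table and 80% were needed.

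Differences between the clones in the expressed members are described here without a test. Of the 18 members that passed in 1 or both clones, 13 (72.2%) were higher in clone 2, against 63.7% of the 9590 such genes on the array. The members' median difference, clone 2 minus clone 1, was 0.26 on the log2 scale, against 0.09 over those 9590 genes. It was 0.28 over the 12 widely expressed forkhead genes, of which 10 were higher in clone 2. Over the other 6 members it was -0.115, with 3 higher in clone 2 and 3 in clone 1. The SD of the difference over the 9590 genes was 0.265. Quantile normalization lowered the members' median to 0.14 and loess to 0.16. The median over all genes was not computed under them, so these values cannot be set against 0.09. A 2-fold difference, with the brighter signal above its background level, was used as the size rule. It was met by 1 of the 18 members, Six4, and by 44 of the 9590 genes (0.459%). Of the 9590, 35 (0.365%) were higher in clone 2 by this rule and 9 (0.0938%) in clone 1. Below 2-fold the next members were Foxk2, 1.71-fold higher in clone 2, Nkx2-9, 1.57-fold higher in clone 1, and Foxm1, 1.49-fold higher in clone 2.

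The difference in Six4 depended on the probe set. The brightest read 7.71 in clone 1 and 8.80 in clone 2, a 2.13-fold difference with a mean of 8.26 ± 0.77 (SD, n = 2), and another gave 7.63 and 8.78. Yet another, also above background in both clones, went the other way with 7.87 and 7.28, and the last was not above background (5.58 and 5.46). The differences were thus 1.09, 1.15 and -0.59, and the mean over the probe sets differed by 0.38. Under quantile normalization the brightest differed by 0.96 and under loess by 0.98, below 2-fold. The gap between the Six4 probe sets, 1.74, was reached by 4 of the 3399 genes with several probe sets above background in both clones (0.118%), a comparison chosen after the Six4 values were seen. The files do not say whether the probe sets read different transcripts of Six4.

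Of the 8 members with several probe sets above background in both clones, 4 had differences of 1 sign, namely Foxo1 (0.37 to 0.58), Foxn3 (0.07 to 0.49), Foxp1 (0.13 to 0.40) and Foxo3 (-0.34 to -0.16). Differences of both signs were found in 3, Six4, Foxk2 (-0.20 to 0.77) and Foxh1 (-0.15 to 0.33), and Foxm1 ranged from 0 to 0.58. Over all genes, 1626 of 3399 (47.8%) had differences of both signs. The other 9 expressed members had 1 probe set above background in both clones, so their differences have no such check.

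**Figure D5:**
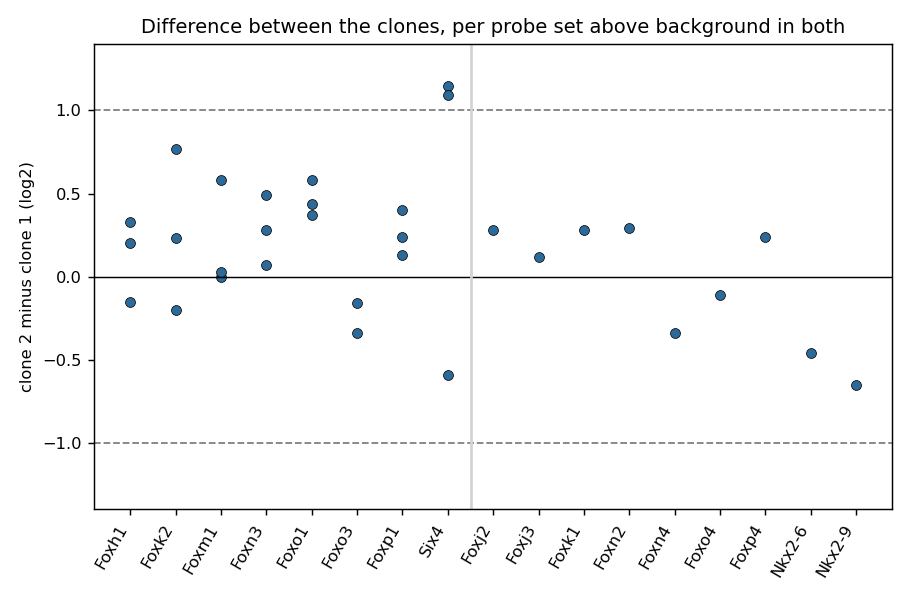
Difference between the clones (clone 2 minus clone 1, log2, vertical axis) for each probe set above background in both clones, by gene; dashed lines mark 2-fold, and the vertical line separates the 8 genes with several such probe sets (left) from the 9 with 1 (right). The Six4 probe sets fall on both sides of 0, at 1.15, 1.09 and -0.59, and all 3 of Foxo1 lie above 0.

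Developmental homeobox genes of other families were also mostly below background. Of 35 measured, 4 were above background in both clones: Gbx2 (8.03 and 8.53), a target of LIF signalling, Hhex (7.32 and 7.68), Msx2 (6.69 and 6.61) and Otx2 (7.27 and 8.71). In clone 1 Msx2 was close to the level of 6.61. Otx2 differed by 1.44 on the log2 scale, the 1 gene of this list that met the 2-fold rule. Prrx2 passed in clone 2 alone (6.48 and 7.13). The other 30 were in neither, including the midbrain factor En1 (2.66 and 2.57), the organiser factor Gsc (3.74 and 3.58) and Emx2, of the cortex (2.81 and 2.67). All 10 core Polycomb genes of the list, whose products silence many of these loci in ES cells, passed in both clones, including Ezh2 (11.08 and 11.25), Suz12 (11.36 and 11.43) and Jarid2 (12.39 and 12.24). No mark of repression was measured here.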

How the data were processed

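The values the authors deposited are array signals on a log2 scale for 45037 probe sets in each clone. Per the submitters' processing notes they were made with Transcriptome Analysis Console. No label states the background correction, summarisation, normalization or build, and the log base was inferred from the values, which run from 2.21 to 14.38. The values were used as deposited, and no depth exists for array signals.

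Genes were named from the 34945 probe sets with 1 symbol in a platform annotation. All 99 members matched the GRCm38.p6 gene table by Entrez identifier, with 0 symbols changed. Another 2 probe sets that name a member beside other genes were not used. Members, gene lists and background genes (58 listed, 48 measured) were chosen with earlier results of these data known. The naming rule allowed every member to be named, with list genes above background or close relatives.

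Counts, differences and alternatives were computed in Python 3.11.15 with pandas 2.3.3 and statsmodels 0.14.6 (loess span 0.3). The code of the size rule was run on simulated data with planted differences well above 2-fold. That run checks the code and cannot show how the rule behaves near 2-fold. The labels do not say whether the clones were grown or hybridised together. No test between groups was possible with 1 group.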

Additional observations from a re-analysis of the deposited data

How the results depend on the processing

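The count of 17 members above background in both clones was 6 with the 99th percentile as background, 10 when probe sets were averaged per gene and 38 with the sensory receptor level, which put 47 in at least 1 clone; under the other alternatives it was 17 to 19. The 99th percentile left 6 Fox, 0 Nkx and 0 sine oculis genes. Nkx2-6, Nkx2-9, Foxn4 and Six4 were thus lost, and only Foxn2, Foxj3, Foxo1, Foxo3, Foxo4 and Foxh1 kept. The mean over probe sets left 8 Fox and 1 Nkx, and Foxj2, Foxj3, Foxk1, Foxm1, Foxp1, Foxp4 and Nkx2-6 were lost. The sensory receptor level gave 6 Nkx, 3 Pax, 3 sine oculis, 2 Tbx, 2 Irx, 1 Dlx and 1 Lhx. The 90th percentile, and the background list without 5 genes known to exceed it, each gave 2 sine oculis and 1 Irx, through Six5 and Irx2. Leaving out a clone gave 1 to 2 sine oculis genes and 17 to 18 members. Members differing 2-fold numbered 0 under quantile, loess and the mean over probe sets, and 3 at a 1.5-fold rule. A change of the background level alone cannot move a member's difference. Under the other 5 settings, 86 of 90 differences of single members moved by less than the SD over genes. The 4 that moved by more were Foxk1, Foxk2, Foxm1 and Six4 with probe sets averaged, where Foxk1 changed sign, from 0.28 to -0.02. That SD, 0.265, is about as large as the members' median difference of 0.26. The count of 86 therefore cannot show that small differences are stable. The members' median difference ranged from 0.06 to 0.35. The causes were not tested. The planned promoter comparison was not run, being void. No paired analysis was possible because there is 1 group. Signals close to background limit the calls of Foxk1, Foxp4, Foxn4, Six5 and Irx2. The same holds for list genes such as Msx2 and Gata6.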
